A study of Mus musculus with 74 samples.

Results

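CXC chemokines are small secreted proteins that attract leukocytes, and 6 of their genes were followed here by symbol, out of 24851 genes in the RNA tables: Cxcl1, Cxcl2, Cxcl3, Cxcl9, Cxcl10 and Cxcl16. All 6 were in the tables. Their RNA was measured in 18 libraries of macrophage-like mouse cells, 2 libraries in each of 9 groups. The cells were the edited line 264, the edited line 3205 and RAW264.7, a macrophage line, each at 0, 60 and 120 min of lipopolysaccharide (LPS), a component of the bacterial outer membrane. The series holds wild type, hypomorphic and, made by CRISPR, H3f3a/H3f3b double knockout lines of RAW264.7, but its labels leave it unsaid which of these 264 and 3205 are, and what LPS dose the lines received. Each edited line is a single line with no second clone here, so the edit and other differences between lines cannot be told apart. Histone ChIP came from primary bone marrow derived macrophages given S.typhosa LPS at 100 ng/mL, with 1 library per target at 60 and at 0 min. RNA changes of such macrophages with LPS are quoted as the authors deposited them, without library values. The series holds RNA libraries of such macrophages given DMSO, the vehicle, and LPS at 100 ng/mL. No label used here ties the quoted changes to those libraries.

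LPS is sensed by the receptor TLR4, which switches on NF-kB through one adaptor route and, through another, interferon beta, whose own receptor then induces a second set of genes. CXCL1, CXCL2 and CXCL3 carry the ELR motif and bring in neutrophils through the receptor CXCR2. CXCL9 and CXCL10 bring in activated T and NK cells through CXCR3 and are induced by interferons, CXCL9 mainly by interferon gamma. CXCL16 is made as a transmembrane protein that also takes up oxidized lipid, is cut from the cell surface by ADAM10 and ADAM17, and binds CXCR6.

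In GRCm38.p6, 5 of the 6 genes stand on chromosome 5. Cxcl3 (chr5:90786101-90788093), Cxcl1 (chr5:90891245-90893121) and Cxcl2 (chr5:90903899-90905938) lie on the plus strand, with 103 kb between Cxcl3 and Cxcl1 and 10.8 kb between Cxcl1 and Cxcl2. Cxcl9 (chr5:92321331-92328079) and Cxcl10 (chr5:92346638-92348889) lie on the minus strand with 18.6 kb between them. Cxcl16 stands apart at chr11:70454389-70459984. RefSeq promoters of that build were matched for 5 of the 6, Cxcl16 aside. The 250 bases before the start of 4 of them are shown because the genes differ widely in LPS response while sharing a site. Capitals mark matches to the NF-kB consensus on either strand and, in Cxcl10, also to the interferon-stimulated response element core (GAAA, any 2 bases, GAAA).
Cxcl1, chr5:90890995-90891244, plus strand: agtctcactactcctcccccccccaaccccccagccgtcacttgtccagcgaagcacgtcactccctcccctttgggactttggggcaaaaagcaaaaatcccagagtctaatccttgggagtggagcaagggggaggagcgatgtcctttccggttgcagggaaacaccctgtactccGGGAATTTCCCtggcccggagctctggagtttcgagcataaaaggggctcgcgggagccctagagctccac
Cxcl2, chr5:90903649-90903898, plus strand: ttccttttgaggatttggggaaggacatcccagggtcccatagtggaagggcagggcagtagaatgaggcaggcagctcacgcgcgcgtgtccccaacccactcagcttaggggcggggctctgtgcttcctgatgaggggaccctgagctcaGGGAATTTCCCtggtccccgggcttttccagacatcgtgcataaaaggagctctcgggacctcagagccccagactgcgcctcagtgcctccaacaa
Cxcl3, chr5:90785851-90786100, plus strand: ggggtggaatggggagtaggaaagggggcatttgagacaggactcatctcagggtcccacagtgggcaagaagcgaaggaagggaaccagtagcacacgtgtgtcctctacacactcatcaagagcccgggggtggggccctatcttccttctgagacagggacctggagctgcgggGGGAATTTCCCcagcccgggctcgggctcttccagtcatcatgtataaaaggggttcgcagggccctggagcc
Cxcl10, chr5:92348890-92349139, minus strand: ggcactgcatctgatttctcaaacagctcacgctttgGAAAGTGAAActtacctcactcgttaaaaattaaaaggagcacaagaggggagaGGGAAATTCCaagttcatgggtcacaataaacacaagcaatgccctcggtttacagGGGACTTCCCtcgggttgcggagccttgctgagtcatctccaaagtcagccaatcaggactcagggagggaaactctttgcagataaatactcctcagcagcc
Cxcl1, Cxcl2 and Cxcl3 hold the same 11 bases in capitals, where overlapping matches on both strands meet, starting 71, 97 and 73 bases before the start. Cxcl10 holds NF-kB matches starting at 159 and 103 bases before the start and the interferon element core at 213. It also holds an AP-1 match (TGANTCA) at 74 bases, left in lower case. In Cxcl9 none of these 3 motifs was found in the 250 bases. Of all 32851 RefSeq promoters cut to the same length, 3.90% held the NF-kB consensus, 2.98% the interferon element core and 6.75% the AP-1 motif, on either strand. A match is a description of letters, not of binding.

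Library depth ran from 13.1 M to 53.9 M reads, and replicates correlated at 0.978 to 0.987 across genes on the log2 scale. Unstimulated H3f3a, one of the H3.3 genes, stood at 188 and 236 normalized reads in line 264, 76.2 and 63.4 in line 3205, and 2926 and 2055 in RAW264.7, while H3f3b stood at 5642 and 7145, 7177 and 7437, and 15367 and 13623 in the same groups. Of 9 macrophage markers 8 were in the tables. Their summed level was 134533 to 216151 in line 264, 190500.4 to 256315 in line 3205 and 365853 to 482157 in RAW264.7. Lyz2 makes up much of that sum. At 0 min Lyz2 had 38736 and 66339 normalized reads in line 264, 108001 and 78105 in line 3205, and 265152 and 225919 in RAW264.7. Cd68, Csf1r, Cd14 and Tyrobp also lay below RAW264.7 in both libraries of both edited lines. Mrc1 did so in line 264 and overlapped with RAW264.7 in line 3205, and Itgam overlapped in both. Fcer1g alone was higher in line 264, at 12679 and 10015. It had 6249 and 5615 in line 3205 and 9766 and 8852 in RAW264.7. The part of these markers in the differences between lines was not tested. Summed neutrophil markers were 4.87 to 13.0 in line 264, 21.9 to 43.1 in line 3205 and 0 to 12.7 in RAW264.7, dendritic cell markers 72.7 to 164, 75.4 to 205 and 111 to 398, and B cell markers 1.82 to 6.11, 22.2 to 152 (mainly Cd79b) and 1.48 to 5.44. Summed T and NK cell markers were 0 to 5.18, 2.39 to 13.7 and 0 to 6.66. The fibroblast sum was at most 3.48 in any library. In bulk RNA, fewer cells making a transcript and less of it per cell cannot be told apart. No label states that replicates were separate cultures, so every p here reflects the spread within these pairs alone, and that spread may be technical. With 2 libraries per group, pairs that do not differ often separate, so statements on overlap are descriptions. The share of all genes without overlap was not worked out.

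**Figure D1:**
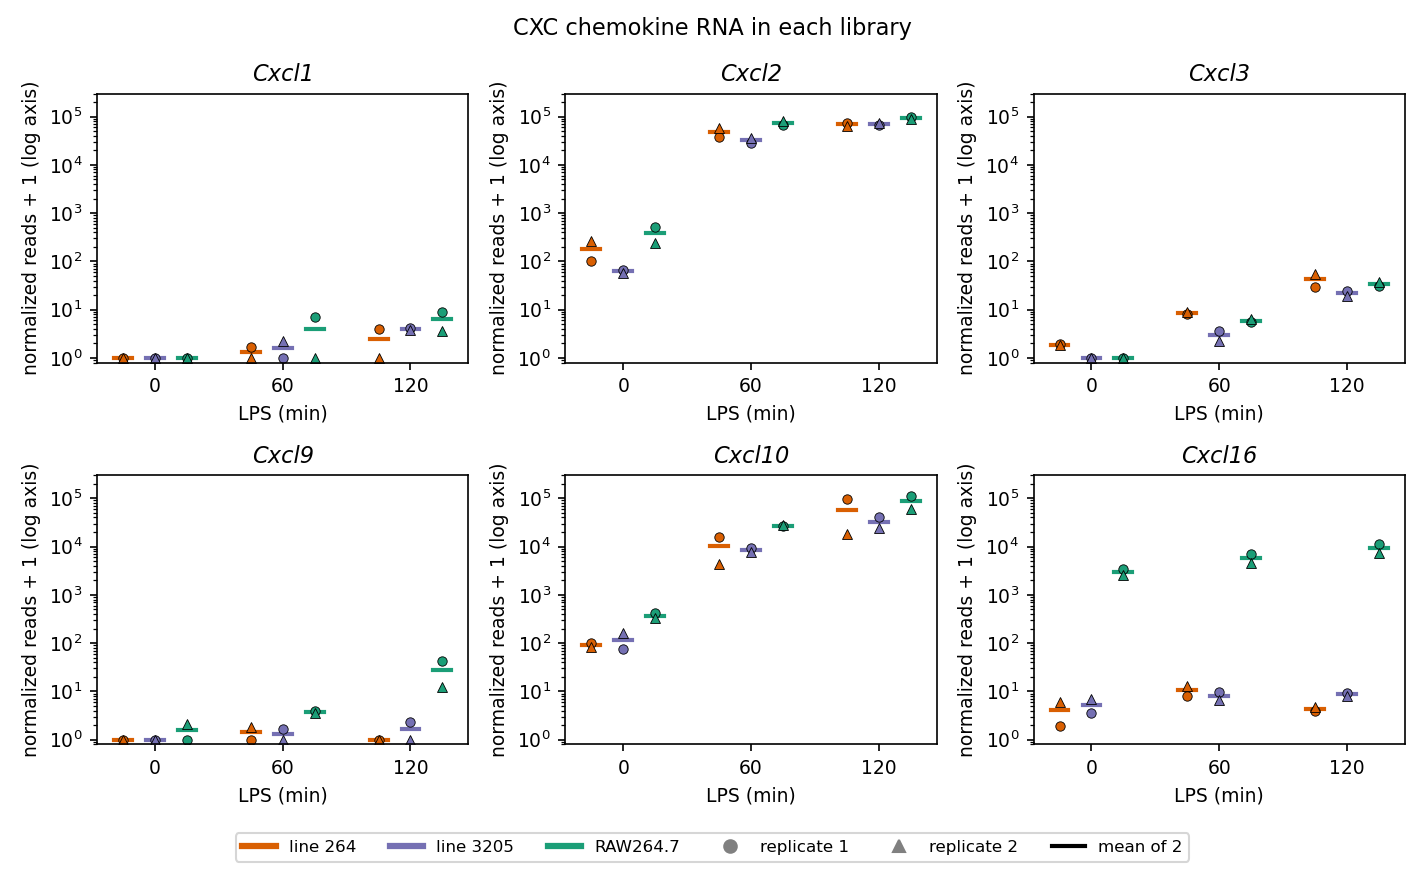
Normalized reads plus 1 (log axis) of the 6 chemokines at 0, 60 and 120 min of LPS, with each library as a point, replicate 1 as a circle and replicate 2 as a triangle, and the mean of 2 as a bar. Cxcl2 and Cxcl10 climbed in all 3 lines, Cxcl1 stayed below 8 normalized reads, and Cxcl16 stood at 2579.8 or more in RAW264.7 and at 12.1 or less in both edited lines.

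LPS raised Cxcl2 and Cxcl10 in all 3 lines by 60 min, and Cxcl3 with them by 120 min. Cxcl9 rose in RAW264.7 at 120 min, and Cxcl1 remained at a few reads throughout. By limma on log2(value + 1) with Benjamini-Hochberg adjustment over all genes, with 2 libraries per group, 2 of the 4 members tested rose at 60 min in line 264 (0.821% of all genes rose), 2 of 4 in line 3205 (0.948%) and 3 of 4 in RAW264.7 (1.66%). Cxcl1 and Cxcl9 were below the filter of a mean of 1 normalized read there. At 120 min all 6 were tested, and 3 rose in line 264 (2.88% of all genes), 3 in line 3205 (2.89%) and 4 in RAW264.7 (5.08%). Cxcl9 passed the filter there only through the RAW264.7 libraries of 120 min, where it was high. Its tests at 120 min, and its place in these and later counts, carry that limit. No member fell, while of all genes 0.370%, 0.277% and 1.32% fell at 60 min and 2.55%, 2.14% and 5.52% at 120 min in line 264, line 3205 and RAW264.7.

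Cxcl2, a CXCR2 ligand, was induced in every line. In line 264 it had 101 and 262 normalized reads at 0 min, 37902 and 57319 at 60 min, and 74499.8 and 63856 at 120 min. In line 3205 it had 65.1 and 57.4 at 0 min, 28405 and 35977 at 60 min, and 68025 and 73408 at 120 min. In RAW264.7 it had 521 and 243, then 68188 and 80987, then 96808 and 89109. The libraries of 0 min lay far below every stimulated library in all 3 lines. Ordered by group mean, RAW264.7 at 120 min stood first. Neighbouring groups overlapped in their libraries for RAW264.7 at 60 min, line 3205 at 120 min and line 264 at 120 min, which were not tested against each other. The log2 change at 120 min was 8.72 ± 0.42 (SE) in line 264, 10.15 ± 0.42 in line 3205 and 8.02 ± 0.42 in RAW264.7, with limma adjusted p of 5.7e-06, 1.8e-06 and 8.4e-06.

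Cxcl3, a close relative of Cxcl2, had risen in every line by 120 min. It had 0.910 and 0.855 normalized reads in line 264 at 0 min, 6.95 and 7.78 at 60 min, and 28.5 and 53.8 at 120 min. In line 3205 it had 0 in both libraries at 0 min, 2.65 and 1.25 at 60 min, and 23.9 and 18.1 at 120 min. In RAW264.7 it had 0 in both, then 4.45 and 5.28, then 29.3 and 36.6. Each time stood clear of the one before in all 3 lines. From 0 to 120 min the reads rose 45.1-fold in line 264 (73 against 2 reads, 95% counting interval 12 to 379). With the 0 reads of 0 min set to a floor of 3 over the group, the rise was 14.1-fold in line 3205 and 19.6-fold in RAW264.7. Such floor ratios leave out the counting error of the other group, and the intervals cover counting error only. Between 60 and 120 min Cxcl3 rose by a log2 of 2.27 ± 0.43 in line 264, 2.93 ± 0.43 in line 3205 and 2.53 ± 0.43 in RAW264.7 (limma adjusted p 0.0154, 0.0034 and 0.0039). It was the 1 member of 6 to rise between those times in line 264 (1.15% of all genes rose) and in line 3205 (1.09%), and with Cxcl9 it was 1 of the 2 that rose in RAW264.7 (3.42%). Its call at 60 min in RAW264.7 rested on 5 reads against 0 and was not made by edgeR or with any 1 of the 4 libraries left out, and DESeq2 gave no adjusted p. The calls from 60 to 120 min were lost with only the groups compared in line 264 (adjusted p 0.202) and in line 3205 (0.188). They were also lost in line 264 without either 60 min library or the second 120 min library (0.0930 to 0.131), and in line 3205 without the second 60 min or the first 120 min library (0.0553 and 0.0568).

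Cxcl1 encodes the third of these neutrophil attractants, and it was barely detected in the lines. Its highest value was 7.99 normalized reads, in RAW264.7 at 120 min, where the other library had 2.52. All 6 unstimulated libraries had 0 reads. Summed over each pair, the 120 min libraries held 3 reads in line 264, 9 in line 3205 and 8 in RAW264.7. Against the floor of 3 reads the ratio was 2.01 in line 3205 and 3.08 in RAW264.7, with the counting error of the 9 and 8 reads left out. No call was made for Cxcl1 by limma in any comparison (RAW264.7 at 120 min, adjusted p 0.0519), and limma blocked by replicate number gave adjusted p 0.0216 there. Cxcl1, Cxcl2 and Cxcl3 are alike in sequence, and no source used here says how reads matching more than 1 of them were counted, so the low values of Cxcl1 and Cxcl3 are uncertain.

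Of the CXCR3 ligands, Cxcl10 was induced in every line. It had 97.4 and 82.1 normalized reads in line 264 at 0 min, 16148 and 4256 at 60 min, and 94541 and 17785 at 120 min. In line 3205 it had 74.5 and 158, then 9231 and 7629.9, then 40765 and 24680.5. In RAW264.7 it had 416 and 323, then 26223 and 28124, then 111075 and 60588. Stimulated libraries stood above unstimulated ones everywhere, but the pair of line 264 lay 5.32-fold apart at 120 min. The log2 change at 120 min was 8.83 ± 0.67 in line 264, 8.18 ± 0.67 in line 3205 and 7.80 ± 0.67 in RAW264.7, with limma adjusted p of 8.2e-05, 1.0e-04 and 9.9e-05. From 60 to 120 min it had a log2 change of 2.31 ± 0.70, 1.92 ± 0.70 and 1.59 ± 0.70 in those lines (limma adjusted p 0.133, 0.26 and 0.223). Blocked by replicate number, the change in line 264 passed, at adjusted p 0.0281.

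The spread of Cxcl10 between replicates was seen in other genes as well. Ifnb1, which encodes interferon beta, had 485 and 32.8 normalized reads in line 264 at 60 min and 3061 and 131 at 120 min. Cxcl11, the other CXCR3 ligand of this group, had 422 and 56.2 at 60 min and 4464 and 208 at 120 min in the same libraries. Replicate 1 was the higher library in 7 of 9 groups for Cxcl10, and in 8 of 9 for Cxcl11 and for Ifnb1. It was also the higher in every group for Irf7 and Nfkbie, genes named after their values were seen. In line 264 at 120 min Irf7 had 6034 and 1811 normalized reads and Nfkbie 2953 and 983. For Cxcl2 and Cxcl3 replicate 1 was the higher in 4 and 3 of 9 groups, with Cxcl3 tied at 0 in line 3205 and in RAW264.7 at 0 min. Whether the difference in Ifnb1 bears on that in Cxcl10 was not tested.

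Cxcl9, the other CXCR3 ligand followed, was at a few reads or none in the edited lines. Line 264 had 0 reads in 5 of its 6 libraries and 1 read in the other, and line 3205 had 3 reads over all 6. RAW264.7 had 0 and 1.16 normalized reads at 0 min, 2.97 and 2.64 at 60 min, and 42.6 and 11.4 at 120 min. At 120 min both RAW264.7 libraries thus stood above every library of the edited lines, although 3.75-fold apart from each other. In RAW264.7 the 41 reads of 120 min against 1 read of 0 min gave a ratio of 47.4 (95% counting interval 8.04 to 1916). Its log2 change there was 3.98 ± 0.71 (limma adjusted p 0.00663), and from 60 to 120 min it was 2.61 ± 0.66 (limma adjusted p 0.0305). On the recovered reads edgeR made neither call (adjusted p 0.0639 and 0.165), edgeR with the replicate block made both, and DESeq2 gave no adjusted p. The first call was also lost without the first 0 min library or the first 120 min library (0.0641 and 0.0591), and the second without either 60 min library or the first 120 min library (0.113 to 0.269).

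Cxcl16, whose membrane-bound product is a ligand for CXCR6, was abundant in RAW264.7 before LPS. It had 3461 and 2579.8 normalized reads at 0 min, 6995 and 4539 at 60 min, and 11282 and 7319 at 120 min. The groups did not overlap in order of time. The log2 change at 120 min was 1.60 ± 0.55, with limma adjusted p 0.105. Blocked by replicate number, the same change had adjusted p 0.0445, and edgeR and DESeq2 on the recovered reads called it as well (adjusted p 0.00565 and 3.4e-06). In the edited lines it had 0.910 to 12.1 normalized reads over all 12 libraries, and no change with LPS was called there. In line 264 the 24 reads of 60 min against 7 of 0 min gave a ratio of 3.0 (95% counting interval 1.25 to 8.23; limma adjusted p 0.434).

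**Figure D2:**
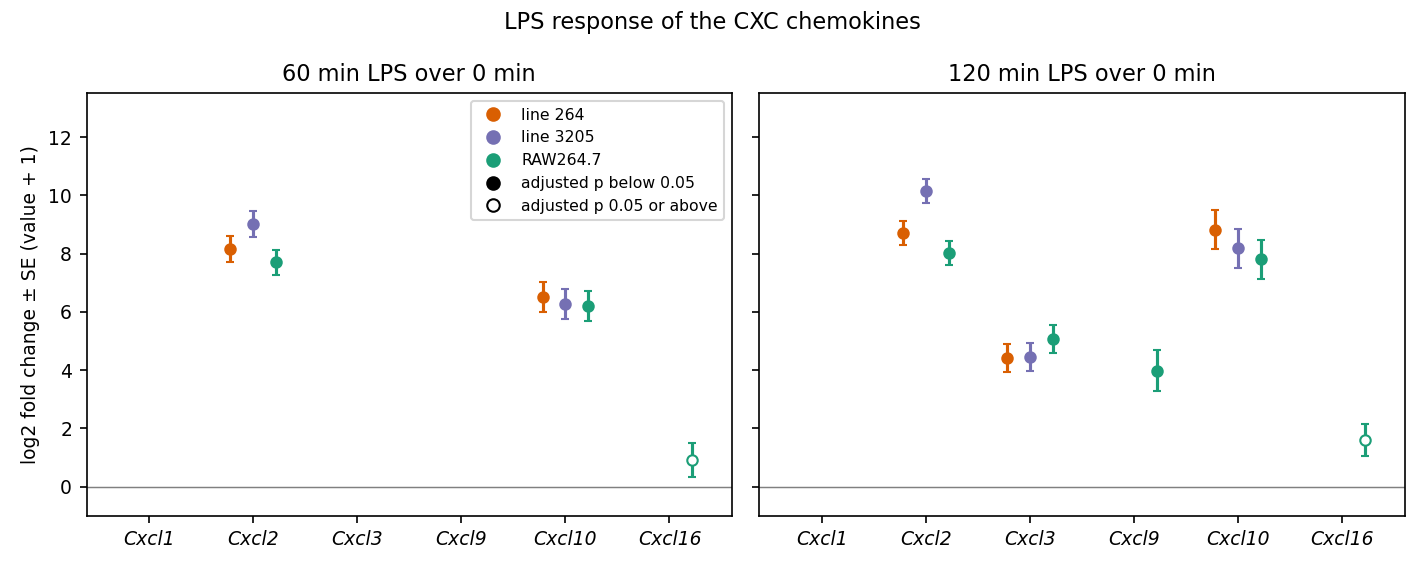
Log2 fold change with its SE (limma, log2 of value + 1) at 60 min and at 120 min over 0 min, from left to right line 264, line 3205 and RAW264.7, filled where the adjusted p is below 0.05 and drawn only where a group reached a mean of 10 normalized reads. Cxcl2 and Cxcl10 are filled in every line at both times, as is Cxcl9 in RAW264.7 at 120 min.

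Cxcl16 was almost absent from both edited lines, against its level in RAW264.7. Before LPS both edited lines also lay below RAW264.7 in Cxcl10 without overlap, a difference called by limma in line 264 only, and line 3205 had less Cxcl2. After 120 min both had less Cxcl9, a test open only because the RAW264.7 libraries of 120 min lifted it over the filter. DESeq2 called it in neither line. The edited lines were not tested against each other. By limma, 2 of the 4 members tested were lower at 0 min in line 264 (5.57% of all genes were lower) and 2 of 4 in line 3205 (5.89%). At 60 min 1 of 4 was lower in line 264 (6.80%) and 1 of 4 in line 3205 (6.46%), and at 120 min 2 of 6 in line 264 (6.13%) and 2 of 6 in line 3205 (5.99%). Cxcl9 was among the 2 in each line at 120 min, under the limit of the filter. No member was higher, while of all genes 7.61% and 8.42% were at 0 min, 8.46% and 8.95% at 60 min, and 7.33% and 7.94% at 120 min in line 264 and line 3205. The median log2 difference of the members tested was -1.57 and -2.14 at 0 min in line 264 and line 3205, where that of all genes was within 0.01 of 0 in both.

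Unstimulated Cxcl16 had 0.910 and 5.13 normalized reads in line 264, 2.57 and 5.98 in line 3205, and 3461 and 2579.8 in RAW264.7. The lines did not overlap with RAW264.7 at any time. Over the 0 min pair line 264 held 7 reads and RAW264.7 5407, a level 983-fold lower (95% counting interval 477 to 2447), and line 3205 held 8 reads, 760.3-fold lower (386 to 1762). At 120 min the levels were 2830.0-fold (1299.9 to 7713) and 1202-fold (801 to 1897) lower. The log2 difference was -9.77 ± 0.58, -9.11 ± 0.58 and -11.05 ± 0.55 at 0, 60 and 120 min in line 264 and -9.23 ± 0.58, -9.47 ± 0.58 and -10.04 ± 0.55 in line 3205, with limma adjusted p of 6.33e-06 or less in each. Every alternative and every library left out kept these 6 calls.

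The genes around Cxcl16 were chosen for a look after its values had been seen. Within 100 kb, 8 other genes had a mean of at least 10 normalized reads. Zmynd15, a zinc finger gene whose span overlaps that of Cxcl16 by 552 bases, had 0 and 5.99 in line 264, 0.856 and 3.59 in line 3205, and 282 and 222 in RAW264.7 at 0 min. Its log2 difference was -6.57 ± 0.99 in line 264 and -6.43 ± 0.99 in line 3205 (limma adjusted p 0.00169 and 0.00199). No source used here says whether counting used strand, so reads of Zmynd15 and Cxcl16 in the shared bases cannot be told apart. Med11, a Mediator subunit gene on the other side, had 902 and 955 in line 264, 930.5 and 976 in line 3205, and 1149 and 1168 in RAW264.7. Pelp1, Arrb2 and Psmb6 likewise stood within 0.33 of RAW264.7 on the log2 scale of means plus 1, in both lines. On that scale Pld2 was at -1.43 and -0.37, Tm4sf5 at -1.94 and 0.44 and the pseudogene Gm12312 at 0.09 and 0.46 in line 264 and line 3205.

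**Figure D3:**
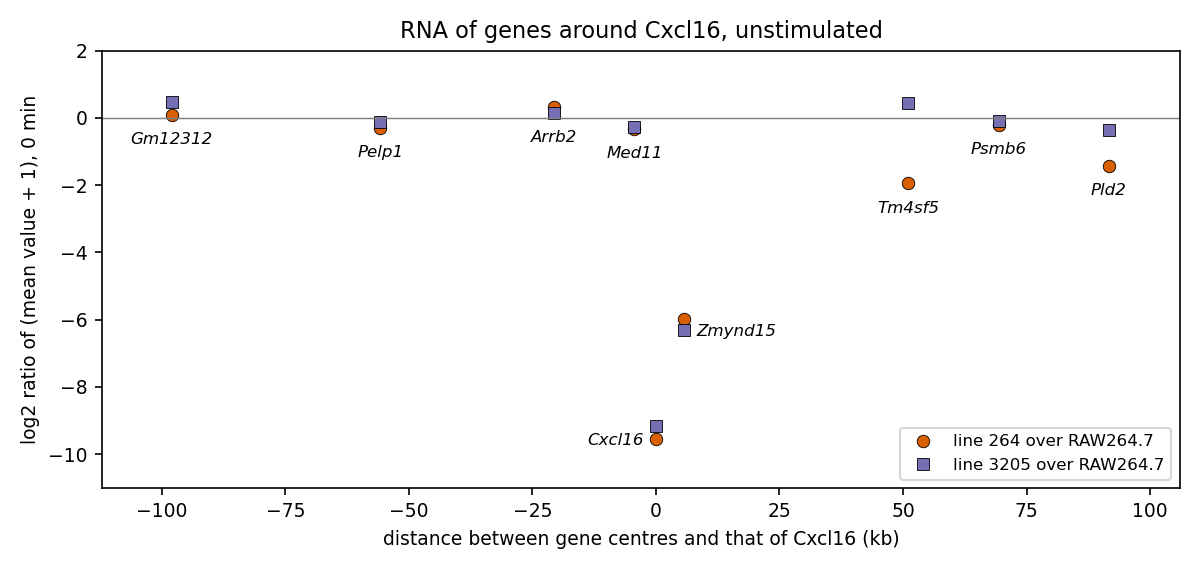
Log2 ratio of the unstimulated mean plus 1 in line 264 (circles) and line 3205 (squares) over RAW264.7, for genes within 100 kb of Cxcl16, by distance between gene centres. Cxcl16 and the overlapping Zmynd15 lie at -5.99 or lower in both lines and the other genes between -1.94 and 0.46.

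Cxcl10 in unstimulated cells had 97.4 and 82.1 normalized reads in line 264, 74.5 and 158 in line 3205, and 416 and 323 in RAW264.7, with no overlap between the edited lines and RAW264.7. The log2 difference was -2.02 ± 0.52 in line 264 (limma adjusted p 0.0299) and -1.75 ± 0.52 in line 3205 (limma adjusted p 0.0527). Blocked by replicate number, line 3205 had adjusted p 0.0234. The call for line 264 was lost with any 1 of its 4 libraries left out (adjusted p 0.0902 to 0.171), without the intensity trend (0.0754) and in the table for 120 min (0.0921). At 60 min Cxcl10 again did not overlap, but limma made no call. The log2 difference was -1.71 ± 0.52 in line 264 and -1.69 ± 0.52 in line 3205 (limma adjusted p 0.0541 and 0.0557). Both passed in limma blocked by replicate number (adjusted p 0.0249 and 0.0256) and in DESeq2. At 120 min the values of line 264 and RAW264.7 overlapped, and the log2 difference was -1.0 ± 0.67 in line 264 and -1.37 ± 0.67 in line 3205 (limma adjusted p 0.417 and 0.228).

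Cxcl2 before LPS was lower in line 3205, at 65.1 and 57.4 normalized reads, against 521 and 243 in RAW264.7. The log2 difference of -2.52 ± 0.44 (limma adjusted p 0.00404) held with any 1 of the 4 libraries left out, at -3.07 to -1.98. In line 264, with 101 and 262 normalized reads, the difference was -1.13 ± 0.44 (limma adjusted p 0.144). After LPS the gap was smaller in value, with the difference of responses tested separately: in line 3205 it was -1.22 ± 0.44 at 60 min and -0.39 ± 0.42 at 120 min (limma adjusted p 0.0981 and 0.629), and in line 264 -0.67 ± 0.44 and -0.43 ± 0.42 (adjusted p 0.389 and 0.616).

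Cxcl9 at 120 min had 0 reads in line 264 and 2 in line 3205, against 41 in RAW264.7. That puts line 264 at least 16.3-fold lower and line 3205 39.7-fold lower (95% counting interval 10.3 to 339). The limma log2 difference was -4.54 ± 0.71 in line 264 and -3.94 ± 0.71 in line 3205 (adjusted p 0.0023 and 0.00534). Cxcl9 was open to this test only because the RAW264.7 libraries of 120 min lifted it over the filter. DESeq2 made neither call (adjusted p 0.0902 and 0.195), and that of line 3205 was at adjusted p 0.0512 without its second library. No difference was called for Cxcl3: at 120 min its log2 difference was 0.25 ± 0.47 in line 264 and -0.63 ± 0.47 in line 3205 (limma adjusted p 0.831 and 0.466).

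**Figure D4:**
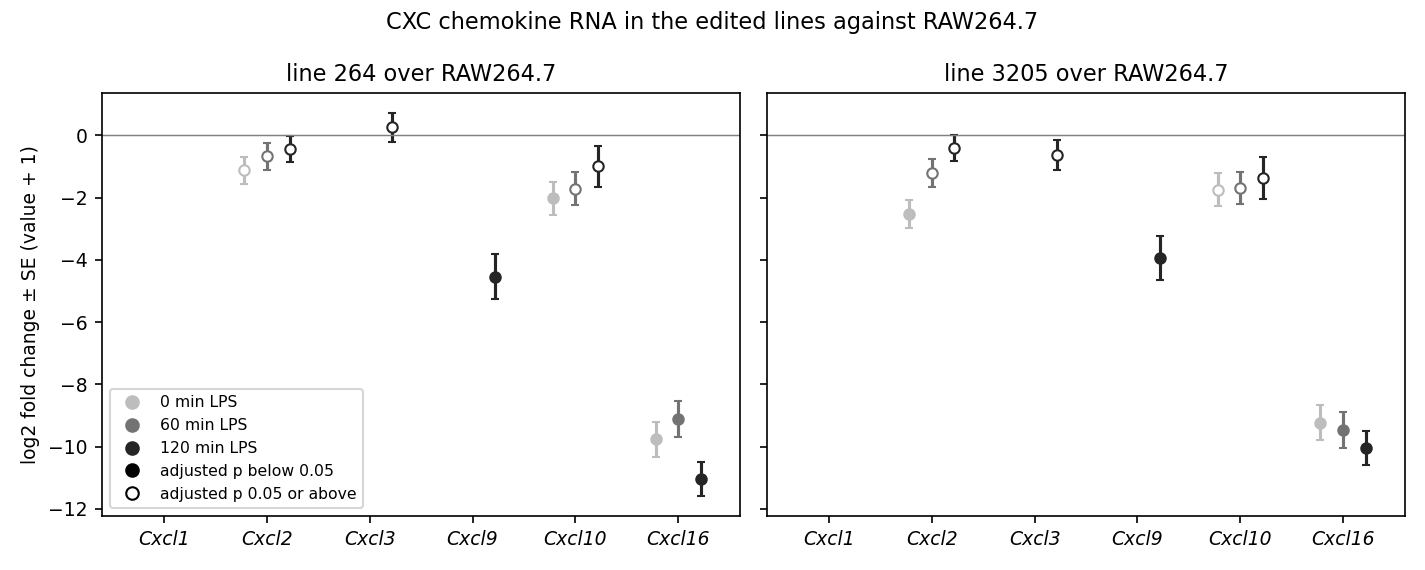
Log2 fold change with its SE (limma, log2 of value + 1) of line 264 and of line 3205 over RAW264.7, at 0, 60 and 120 min from left to right, filled where the adjusted p is below 0.05 and drawn only where a group reached a mean of 10 normalized reads. Cxcl16 lies between -11.05 and -9.11 at every time, while Cxcl2 in line 3205 moves from -2.52 at 0 min to -0.39 at 120 min.

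Whether the LPS response itself differed between an edited line and RAW264.7 was tested as a difference of responses. No member was called by limma in any of the 4 tests, in which 0.0173% and 0.0229% of all genes were called for line 264 at 60 and 120 min and 0.00578% and 0.00573% for line 3205. At an unadjusted p below 0.05 there were 0 members at 60 min for either line, and 1 (Cxcl9, line 264) and 2 (Cxcl2 and Cxcl9, line 3205) at 120 min. Of the other tools edgeR called 0 in each, and DESeq2 called 1, Cxcl2 in line 3205 at 120 min. That difference was 2.13 ± 0.59 in limma (p 0.00486, adjusted p 0.606) and 2.25 ± 0.60 in DESeq2 (adjusted p 0.0302). Left-out libraries moved it between 1.58 and 2.68, both ends set by an unstimulated RAW264.7 library. Cxcl10 responses differed by 0.31 ± 0.74 and 1.02 ± 0.94 for line 264 and by 0.05 ± 0.74 and 0.38 ± 0.94 for line 3205 at 60 and 120 min (limma adjusted p 1 in each).

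Of 18 genes of the NF-kB route, all tested, 9 rose and 1 fell at 60 min in line 264, 11 and 1 in line 3205, and 10 and 1 in RAW264.7. Of all genes, 0.821% rose and 0.370% fell in line 264, 0.948% and 0.277% in line 3205, and 1.66% and 1.32% in RAW264.7. Nfkbia, which encodes the inhibitor IkB alpha and is itself an NF-kB target, rose by a log2 of 2.76 ± 0.13 in line 264, 3.55 ± 0.13 in line 3205 and 2.32 ± 0.13 in RAW264.7 at 60 min (limma adjusted p 9.51e-06 or less). Tnfaip3, encoding the A20 brake on NF-kB, rose by 5.06 ± 0.19, 5.50 ± 0.19 and 5.50 ± 0.19 there, and the gene that fell was Tlr4, the LPS receptor gene, named after its values were seen, at -0.71, -0.63 and -0.92. The list's median log2 change at 60 min was 1.03, 1.31 and 1.28, where that of all genes was within 0.01 of 0. Against RAW264.7 at 120 min, 2 of the 18 were higher and 5 lower in line 264, and 1 higher and 9 lower in line 3205, where of all genes 7.33% were higher and 6.13% lower in line 264 and 7.94% and 5.99% in line 3205. Tnfaip3 stood at -1.56 ± 0.20 and -1.57 ± 0.20 there (limma adjusted p 6.5e-04 and 6.9e-04).

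Of 17 genes of the interferon route, 3 rose at 120 min in line 264, 2 in line 3205 and 3 in RAW264.7, and none fell. Of all genes, 2.88% rose and 2.55% fell in line 264, 2.89% and 2.14% in line 3205, and 5.08% and 5.52% in RAW264.7. Ifnb1 rose in each, by a log2 of 6.77 ± 1.15, 9.03 ± 1.15 and 9.81 ± 1.15 (limma adjusted p 0.00849, 0.00181 and 7.0e-04). Irf1, a transcription factor gene induced by interferons, had 2099 and 364 normalized reads in line 264, 1014 and 507 in line 3205, and 10458 and 7006 in RAW264.7 at 120 min. Both edited lines lay below RAW264.7 without overlap. The log2 difference was -3.29 ± 0.65 and -3.58 ± 0.65 (limma adjusted p 0.00839 and 0.00562), and Irf1 rose with LPS by 3.54 ± 0.65 in RAW264.7 (adjusted p 0.00771). The difference between its responses was not called in either line (limma adjusted p 1 and 0.531).

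Of 9 other CXC ligands 7 were in the tables and 3 could be tested. Cxcl11 rose in RAW264.7 at 120 min by a log2 of 5.84 ± 1.37 (limma adjusted p 0.0235) and had 4.72 ± 1.37 and 5.28 ± 1.37 in line 264 and line 3205 (adjusted p 0.0849 and 0.0599). Cxcl14, a chemokine of epithelia, had 0 and 1.71 normalized reads in line 264, 487 and 1667 in line 3205, and 633 and 733 in RAW264.7 at 0 min, and Pf4, platelet factor 4, had 2.73 and 1.71, 35.1 and 40.6, and 37.0 and 52.1. Both were lower in line 264 than in RAW264.7, at -8.69 ± 0.63 and -3.82 ± 0.44 (limma adjusted p 1.5e-05 and 3.2e-04). Of 8 receptors, all in the tables and 5 tested, none rose at 60 or 120 min over 0 min. Cxcr3, the receptor for CXCL9 and CXCL10, was higher before LPS in line 264 by 2.74 ± 0.38 and in line 3205 by 3.20 ± 0.38 (limma adjusted p 0.00109 and 4.6e-04). Cxcr4, the receptor for CXCL12, fell at 120 min, with log2 changes of -1.81, -2.79 and -2.35 in line 264, line 3205 and RAW264.7 (limma adjusted p 0.0466, 0.0066 and 0.00903).

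Chemokine messages are unstable, and of 9 genes that set their decay 2 rose at 60 min in line 264, 2 in line 3205 and 3 in RAW264.7, where 1 fell, beside the shares of all genes given for the NF-kB route at that time. Zfp36 encodes tristetraprolin, which binds AU-rich elements. It rose by a log2 of 5.76 ± 0.21 in line 264, 5.83 ± 0.21 in line 3205 and 4.58 ± 0.21 in RAW264.7 at 60 min (limma adjusted p 2.6e-06 or less) and fell between 60 and 120 min, with log2 changes of -2.43, -2.23 and -1.51 (adjusted p 7.5e-04, 0.00123 and 0.00653). Zc3h12a, encoding the ribonuclease Regnase-1, rose by 4.30 ± 0.23, 4.12 ± 0.23 and 3.72 ± 0.23 at 60 min. Of 5 genes of CXCL16 shedding, 3 rose at 120 min in each line, namely Rhbdf2, Furin and Adam17, beside the 2.88%, 2.89% and 5.08% of all genes that rose. Adam10, the main constitutive sheddase, was higher in the edited lines, by 1.61 ± 0.19 in line 264 and 1.23 ± 0.19 in line 3205 at 0 min (limma adjusted p 4.1e-04 and 0.00215), while Adam17 was lower in line 3205, at -1.23 ± 0.18 (adjusted p 0.00161). Of the 5 at 0 min, 1 was higher and 1 lower in line 264 (7.61% and 5.57% of all genes). In line 3205, 1 was higher and 3 were lower (8.42% and 5.89% of all genes).

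Genes most like each member were ranked by Pearson correlation of log2(value + 1) over the 18 libraries among 10658 genes. The points share lines, times and replicate numbers, so the values are descriptions. Cxcl2 stood nearest to Nfkbia (0.986), Zc3h12a (0.983) and Tnf (0.981). For Cxcl3 they were Tnip1 (0.979), Stk40 (0.974) and Lif (0.963), and for Cxcl10 Irg1 (0.980), Pim1 (0.974) and Sdc4 (0.974). Cxcl16 was nearest to Rbfox1 (0.992), Lyz1 (0.991) and Igf2bp1 (0.991), and 142 genes correlated with it above 0.9, the most of any member. Cxcl9 was nearest to Tpbg (0.916), Plek2 (0.912) and Fbxo15 (0.903), while for Cxcl1 the best value was 0.848, with Rgl1.

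RNA values of primary macrophages, which no label used here ties to the libraries given DMSO, covered 4 of the 6 genes. The authors' deposited table gives a mean of 29236 normalized reads for Cxcl1, 69556 for Cxcl2, 396 for Cxcl3 and 4007 for Cxcl10, and does not list Cxcl9 or Cxcl16. In the authors' deposited table the log2 change of Cxcl3 was 3.39 ± 0.33 and that of Cxcl10 5.71 ± 0.21 (SE as deposited), beside 9.86 ± 0.18 for Cxcl1 and 11.39 ± 0.17 for Cxcl2. These values stand identically in the tables named for 60 and for 120 min, so their time cannot be told. They were normalized apart from the cell lines, and levels are not compared between them.

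ChIP signal was listed for the same 4 genes among 193, of which 187 had a positive RNA change in the authors' table, and how the authors selected them is not stated. Each value is 1 library, with no replicate check and no test. Signal of H3S31ph, phosphorylated serine 31 that among H3 proteins H3.3 alone carries, was 50.3 at 60 min against 1.69 at 0 min at Cxcl2, and 25.2 against 1.30 at Cxcl1. It was 4.03 against 1.32 at Cxcl10 and 2.55 against 1.57 at Cxcl3. The ratio of 19.4 at Cxcl1 was the eighth largest of the list and that of 29.8 at Cxcl2 the largest, while those of Cxcl10 (3.06) and Cxcl3 (1.63) lay below the list's median of 3.83. Whether the NF-kB match in the Cxcl1, Cxcl2 and Cxcl3 promoters bears on these ratios was not tested.

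H3S28ph, a phosphorylation possible on all H3 proteins, ordered the genes otherwise. It was 5.12 at 60 min against 0.832 at 0 min at Cxcl10, the second largest ratio of the list (6.16), and 4.35 against 1.05 at Cxcl1. At Cxcl3 it was 3.74 against 1.26 and at Cxcl2 2.02 against 1.04, ratios of 2.96 and 1.93 beside a median of 2.58. H3K27ac, a mark of active promoters and enhancers, was 2.23 against 1.08 at Cxcl2 and 1.73 against 0.933 at Cxcl10, with a ratio of 1.49 at Cxcl1. At Cxcl3 it was 0.721 against 1.08, a ratio of 0.665 where the median was 1.16. H3K36me3, laid down along transcribed genes, was 1.45 at 60 min against 0.408 at 0 min at Cxcl2, the fifth largest ratio (3.55), and its ratio was 2.02 at Cxcl1, 1.96 at Cxcl3 and 1.61 at Cxcl10. H3K36me2 ratios were 0.821 to 1.02 at the 4 genes. Total H3.3 was 1.16 against 1.11 at Cxcl1, 1.92 against 1.15 at Cxcl2, 1.24 against 1.04 at Cxcl3 and 2.13 against 1.02 at Cxcl10, beside a median ratio of 1.96. Divided by the H3.3 ratio of the same gene, the H3S31ph ratio was 18.6 at Cxcl1, 17.9 at Cxcl2, 1.46 at Cxcl10 and 1.36 at Cxcl3, so the order of Cxcl1 and Cxcl2 turned.

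**Figure D5:**
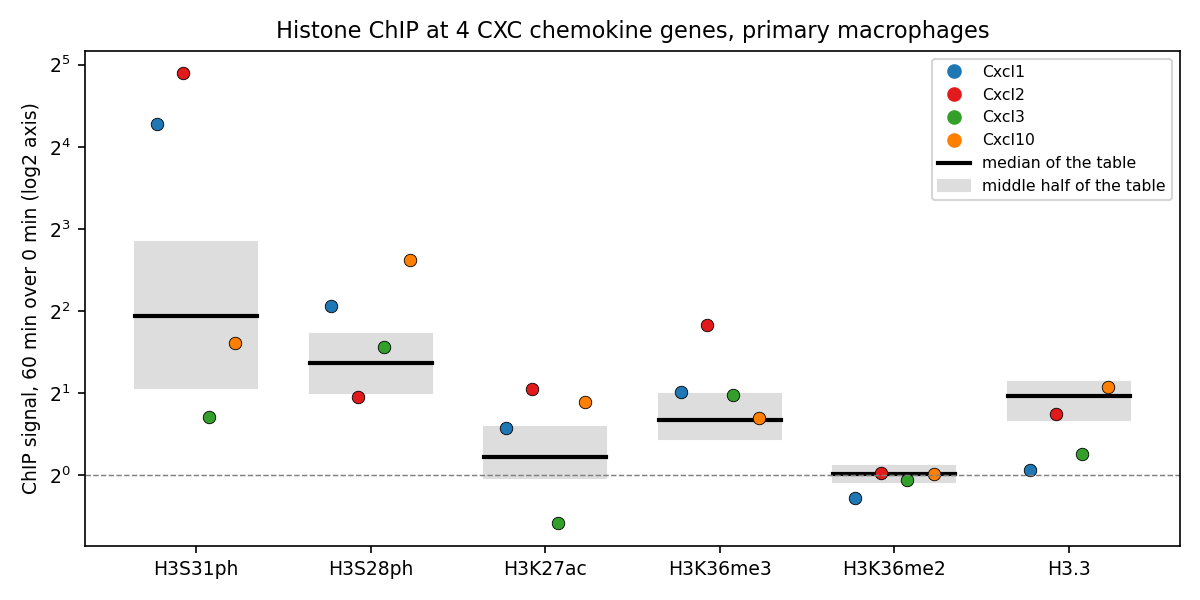
Ratio of ChIP signal at 60 min over 0 min (log2 axis) for 6 targets at the 4 listed chemokine genes, 1 library per target and time, with the median (bar) and the range between quartiles (grey) of the 193 genes in the table. Cxcl2 and Cxcl1 stand at 29.8 and 19.4 for H3S31ph, far above the median of 3.83, and Cxcl10 at 6.16 for H3S28ph.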

How the data were processed

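RNA was measured in 18 libraries of mouse cell lines, and 12 ChIP libraries came from primary macrophages. These 30 of the 74 samples had values, and the other 44 were not analysed here. Members and gene lists were chosen with earlier results of these data known. Trim Galore 0.5.0, STAR 2.4.2, featureCounts of Subread 1.4.6, DESeq2, Bowtie2 2.3.4.1 and deepTools 2.5.4 with mm10 are named in the submitters' processing notes. The deposited RNA signal is a count divided by 1 size factor per library: 100% of values were whole within 0.1 read after rescaling, and both tables share 1 normalization. No source used here says what the deposited ChIP signal or coverage is scaled to. Log2 fold changes, p-values, adjusted values and a score were also deposited, per the file headers.

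limma 3.58.1 (R 4.3.3) with an intensity trend was fitted to log2(value + 1), 12 libraries per time and 18 for 120 against 60 min, over genes with a mean of at least 1. A call is an adjusted p (Benjamini-Hochberg, all genes tested) below 0.05. Normalized values were found where raw counts might have been, so limma was used as planned for them. Scripts were tested on simulated data. Deviations of same-numbered replicates correlated at 0.159 to 0.614 (median 0.298) over all 36 pairs of groups, so the numbers pair the libraries. Calls, shares and list results are nevertheless from the planned limma fit without a replicate block. A fit with the block was run for each comparison and is quoted where named. Alternatives were limma without the trend, no filter, pseudocounts of 0.5 and 5, only the groups compared, edgeR 4.0.16 (unblocked and blocked), DESeq2 1.42.0, TMM scaling, each library left out, and for ChIP division by H3.3 or by the table's median. Named genes were all 6 members, up to 4 of each list by smallest p, and the 3 genes most like each member with a highest group mean of at least 50. The genes around Cxcl16 were added after its values were seen. Figures and tables used matplotlib 3.10.9, pandas 2.3.3, scipy 1.17.1 and numpy 2.4.6 in Python 3.11.15. Depth limits genes with under 10 normalized reads, whose fitted changes depend on the pseudocount.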

Additional observations from a re-analysis of the deposited data

How the results depend on the processing

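Of 61 log2 values of single chemokines, recomputed under 896 settings in all, 824 kept their direction and their side of the threshold, 25 lost a call, 34 gained one and 13 turned sign, none of a called value. With TMM scaling and with no filter all 61 kept both. Signs turned for Cxcl10 in the response of line 3205 minus RAW264.7 at 60 min (0.05), at -0.0055 by edgeR with the replicate block and -0.014 by DESeq2. With 1 library left out it ran from -0.48 to 0.59. In the same response difference at 120 min Cxcl10 ran from -0.16 to 0.91, and for line 264 from -0.65 to 1.27 at 60 min and -0.18 to 2.23 at 120 min. Cxcl2 for line 264 at 60 min ran from -0.23 to 1.13. Of line 264 minus RAW264.7 at 120 min, Cxcl3 ran from -0.20 to 0.70 and Cxcl10 from -2.21 to 0.20.

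The number of members called moved as follows, and the cause was not tested. For line 264 against RAW264.7 at 60 min (1) it was 2 with the replicate block, with edgeR and the block and with DESeq2. For line 3205 at 60 min (1) it was 2 without the trend and with the block, and 3 with only the groups compared, edgeR with the block and DESeq2. At 120 min DESeq2 called 1 in place of 2 in each line. At 0 min the table for 120 min gave 1 in place of 2 for line 264. For the response of line 3205 at 120 min DESeq2 called 1 in place of 0. From 60 to 120 min, line 264 (1) had 2 with the block, with edgeR and the block and with DESeq2, and 0 with only the groups compared. Line 3205 (1) had 2 with edgeR and the block and 0 with only the groups compared, fewer libraries entering that fit. RAW264.7 (2) had 1 with a pseudocount of 0.5, with edgeR and with DESeq2, and 3 with edgeR and the block, adding Cxcl16. DESeq2's 1 call in line 3205 was Cxcl2. It gave Cxcl3 there and Cxcl9 in RAW264.7 no adjusted p, so they are not counted as lost.

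With 1 library left out, the share of all genes called in either direction ran from 3.84% to 5.62% in place of 10.6% for LPS at 120 min in RAW264.7, from 1.99% to 3.36% in place of 5.43% in line 264, and from 8.62% to 9.05% in place of 15.3% for line 264 against RAW264.7 at 60 min. Counts of members ran from 1 to 2 for line 264 against RAW264.7 at 0 and 60 min, from 2 to 3 at 120 min, from 2 to 3 for line 3205 at 0 min and 1 to 2 at 120 min. They ran from 0 to 1 from 60 to 120 min in either edited line, from 1 to 2 in RAW264.7, from 3 to 4 for its response at 120 min, and were 2 at 60 min whichever library was left out. With the replicate block the response of RAW264.7 at 120 min had 6 calls in place of 4, adding Cxcl1 and Cxcl16, and that of line 264 at 60 min had 3 in place of 2, adding Cxcl3. Line 3205 against RAW264.7 at 0 min had 3 in place of 2, adding Cxcl10, also with edgeR and the block and with DESeq2. For the response of RAW264.7 at 60 min (3) edgeR called 2, Cxcl2 and Cxcl10, while edgeR with the block and DESeq2 called 3, with Cxcl16 in place of Cxcl3. At 120 min (4) edgeR and DESeq2 called 4, with Cxcl16 in place of Cxcl9, and edgeR with the block called 5, adding Cxcl16. DESeq2 gave no adjusted p for Cxcl3 at 60 min or Cxcl9 at 120 min. Over all genes, DESeq2 and limma with the block called more than limma alone: for LPS at 60 min 512 and 691 in place of 206 in line 264, 508 and 691 in place of 212 in line 3205, and 874 and 1398 in place of 515 in RAW264.7. For LPS at 120 min in RAW264.7 limma with the block called 4137 genes in place of 1849. For line 3205 against RAW264.7 at 0 min it called 4581 in place of 2476. At 60 min it called 4648 in place of 2640 for line 264 against RAW264.7 and 4833 in place of 2666 for line 3205.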
